A study of Mus musculus with 2 samples.

Results

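The tumour cells highest in ATF4 stress genes were examined in single-cell RNA data from MC38 spheroids. For each cell, the unique molecular identifiers (UMIs, 1 per captured RNA molecule) of Ddit3, Trib3, Chac1, Asns, Sesn2 and Atf5 were divided by all UMIs of the cell. The top 5% of the pooled cells by this share were taken, which gave 278 of 5554 kept cells. Of these 278 cells, 160 came from the aPD-1 library and 118 from the IgG library. They are called members here, and the 3196 aPD-1 and 2080 IgG cells below the cut are called the other kept cells. Kept cells are those of 5000 UMIs or more and 500 genes or more, with no more than 10% of UMIs from mitochondrially encoded genes. Because the 6 genes chose the members, the levels of these genes in members are a description and not a finding.

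MC38 is a mouse colon carcinoma line, carried here in C57BL/6 albino mice. Fresh tumours were dissociated, and fragments of 40 to 100 µm were cultured in collagen inside a microfluidic chip. The aPD-1 cultures received clone RMP1-14, an antibody against the inhibitory T cell receptor PD-1, at 10 µg/mL. The IgG cultures received the control antibody 2A3 at the same concentration. Spheroids were taken on day 6 and digested with collagenase and then trypsin. Tumour cells were sorted by flow cytometry, and 1 library per treatment was made on the 10x platform. The series states its aim as describing MC38 cells that persist under PD-1 blockade. Neither the sort markers nor the number of tumours behind a library were given in the sources used here. With 1 library per treatment and cells that are not replicates, no test between conditions was possible, and all intervals below cover counting error only.

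ATF4 is the transcription factor of the integrated stress response. Kinases that sense amino acid shortage, unfolded protein in the endoplasmic reticulum, haem shortage or double-stranded RNA phosphorylate eIF2, which lowers bulk translation while ATF4 mRNA is translated more. ATF4, often paired with C/EBP proteins, then raises genes for amino acid uptake and synthesis, tRNA charging and, under lasting stress, cell death.

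Of the 6 genes, Ddit3 (ENSMUSG00000025408, chr10:127290774-127296288, plus strand) encodes CHOP, a C/EBP-family factor linked to stress-induced death. Trib3 (ENSMUSG00000032715, chr2:152337422-152344032, minus strand) encodes a pseudokinase induced by ATF4 and CHOP. Atf5 (ENSMUSG00000038539, chr7:44812256-44816658, minus strand) encodes a further factor of the ATF4 family. Chac1 (ENSMUSG00000027313, chr2:119351229-119354381, plus strand) encodes an enzyme that degrades glutathione. Asns (ENSMUSG00000029752, chr6:7675169-7693254, minus strand) encodes asparagine synthetase. Sesn2 (ENSMUSG00000028893, chr4:132492032-132510501, minus strand) encodes a leucine sensor that restrains mTORC1. These are GENCODE M21 coordinates on GRCm38.

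The 8-base core TGATGNAA of the C/EBP-ATF response element was searched on both strands, overlaps allowed, from 250 bases before to 50 bases after each gene start in the RefSeq promoter table (GRCm38.p6). It was present in 3 of the 6 genes, Trib3, Chac1 and Asns, against 3.97% of all 32851 promoters (1304) and 2.49% of the 3771 matched genes at or above the expression floor of 20 CPM (94), where CPM is UMIs per 1000000 UMIs summed over the cells of a class. It was also present in 5 of 12 matched tRNA synthetase genes and in 7 of 25 other ATF4 targets. Of the sequences below, Chac1, Asns and Trib3 are shown as genes of the rule, whose level in members was set by the choice. The others are shown because the tRNA synthetase genes and other ATF4 targets stood higher in members as groups. Slc7a11 is also among the genes that hold the core at more than 1 place. Capitals mark the core, which reads TTNCATCA where it lies on the opposite strand, and each line runs 5′ to 3′ on the strand of the gene. For Chac1 and Asns the 250 bases before the gene start are given, and for the other genes a window of 30 bases.
Chac1 (chr2:119350992-119351241, plus strand): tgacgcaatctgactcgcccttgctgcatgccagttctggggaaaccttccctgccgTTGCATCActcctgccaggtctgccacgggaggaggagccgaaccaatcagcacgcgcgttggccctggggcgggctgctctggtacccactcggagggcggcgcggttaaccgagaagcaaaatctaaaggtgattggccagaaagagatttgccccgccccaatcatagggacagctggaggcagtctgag
Asns (chr6:7693210-7693459, minus strand): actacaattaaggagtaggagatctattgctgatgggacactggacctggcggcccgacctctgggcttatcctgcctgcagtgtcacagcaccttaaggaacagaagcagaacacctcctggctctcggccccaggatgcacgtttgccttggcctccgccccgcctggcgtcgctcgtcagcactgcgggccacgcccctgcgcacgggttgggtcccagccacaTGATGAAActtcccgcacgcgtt
Trib3 (chr2:152344028-152344057, minus strand): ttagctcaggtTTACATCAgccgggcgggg
Atf3 (chr1:191183425-191183454, minus strand): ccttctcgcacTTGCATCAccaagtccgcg
Herpud1 (chr8:94386306-94386335, plus strand): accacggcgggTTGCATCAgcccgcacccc
Slc7a11, farther from the gene start (chr3:50443661-50443690, minus strand): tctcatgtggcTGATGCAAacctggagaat
Slc7a11, nearer to it (chr3:50443642-50443671, minus strand): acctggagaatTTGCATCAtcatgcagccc
Gars (chr6:55037960-55037989, plus strand): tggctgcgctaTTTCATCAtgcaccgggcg
Tars (chr15:11399655-11399684, minus strand): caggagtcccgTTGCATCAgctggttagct
Iars (chr13:49682126-49682155, plus strand): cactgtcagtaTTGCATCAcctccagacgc
Yars (chr4:129189895-129189924, plus strand): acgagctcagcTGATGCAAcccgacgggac
The core read TTGCATCA, or TGATGCAA on the other strand, was shared by Chac1, Atf3, Herpud1, Slc7a11, Tars, Iars and Yars, whereas Trib3, Asns and Gars held other letters at the free position. Among the 18 matched type I interferon genes none held the core. A match describes these letters only, and no match says only that they are not in this window.

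The aPD-1 matrix held 68385785 UMIs and the IgG matrix 52720076 UMIs over the same 28692 genes. The aPD-1 matrix listed 737280 barcodes, 3437 of them with at least 5000 UMIs, and the IgG matrix 4351 barcodes, 2287 of them with at least 5000. Kept cells of both libraries shared 8 barcodes, and no barcode was shared between members. Doublets were not called, and free RNA was not subtracted.

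Members were somewhat shallower than the other kept cells. Median UMIs per cell were 15602.5 in members and 16645 in the other kept cells of the aPD-1 library, and 17354.5 and 20753 in the IgG library. Median mitochondrial shares were 3.33% in members and 3.61% in other kept cells with aPD-1, and 2.85% and 2.92% with IgG. Ribosomal protein genes held a median of 35.1% of UMIs in members and 38.3% in other kept cells with aPD-1, and 31.0% and 34.4% with IgG. The share of cells that were members was 6.41% in the shallowest and 3.97% in the deepest of 4 equal depth bins of the pooled cells with aPD-1, and 7.32% and 4.47% with IgG. The part of depth in the results was examined only by thinning, by a floor of 10000 UMIs per cell and by leaving out the deepest 5% of cells of each library. When every cell was thinned to 5000 UMIs before the choice, 169 of the 278 members (60.8%) were chosen again.

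Macrophage, T and NK cell and endothelial markers gave few UMIs in members, whereas fibroblast markers did not. Epithelial markers (Epcam, Krt8, Krt18, Krt19 and Cdh1) had 0 UMIs in members of both libraries, so the tumour identity of the cells rests on the sort. The 10 macrophage markers summed to 5.60 CPM in members and 5.41 CPM in other kept cells with aPD-1, and to 3.52 and 32.2 CPM with IgG; Ptprc and Adgre1 were at 0 in members of both libraries. The T and NK cell markers summed to 1.12 CPM in aPD-1 members and 0.880 CPM in IgG members, with Cd3e at 0. Endothelial markers summed to 4.48 CPM in members and 7.76 CPM in other kept cells with aPD-1, and to 25.5 and 40.0 CPM with IgG. Fibroblast markers, Dcn and Col3a1 among them, summed to 608 CPM in members and 704 CPM in other kept cells with aPD-1, and to 805 and 1093 CPM with IgG, with Thy1 at 0 in members. At least 5 fibroblast UMIs were found in 91 of 160 members (56.9%) with aPD-1 and in 88 of 118 (74.6%) with IgG, against 64.7% and 78.9% of other kept cells. These markers do not tell fibroblasts from MC38 cells that express the same genes, and their part in the results was not tested. Of the kept cells, 34 had at least 5 macrophage or endothelial UMIs, and 1 of these was a member. Without these 34 cells, 330 genes were higher and 40 lower in members in both libraries, against 332 and 42 with them.

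The share in the 6 genes had a single broad distribution with a long upper tail and no gap at the cut. Its median was 0.133% in members and 0.0313% in other kept cells with aPD-1, and 0.141% and 0.0304% with IgG. The highest member held 0.290% with aPD-1 and 0.364% with IgG. Just inside the cut lay an IgG cell at 0.10828% (17 of 15700 UMIs), and just outside it an aPD-1 cell at 0.10825% (24 of 22171 UMIs). The cut therefore separates cells of nearly equal share. A member held a median of 22 UMIs of the 6 genes with aPD-1 and 24 with IgG, against 5 and 6 in the other kept cells. Members were 4.77% of kept cells with aPD-1 (Clopper-Pearson 95% interval 4.07 to 5.54) and 5.37% with IgG (4.46 to 6.39), and these intervals overlap.

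**Figure D1:**
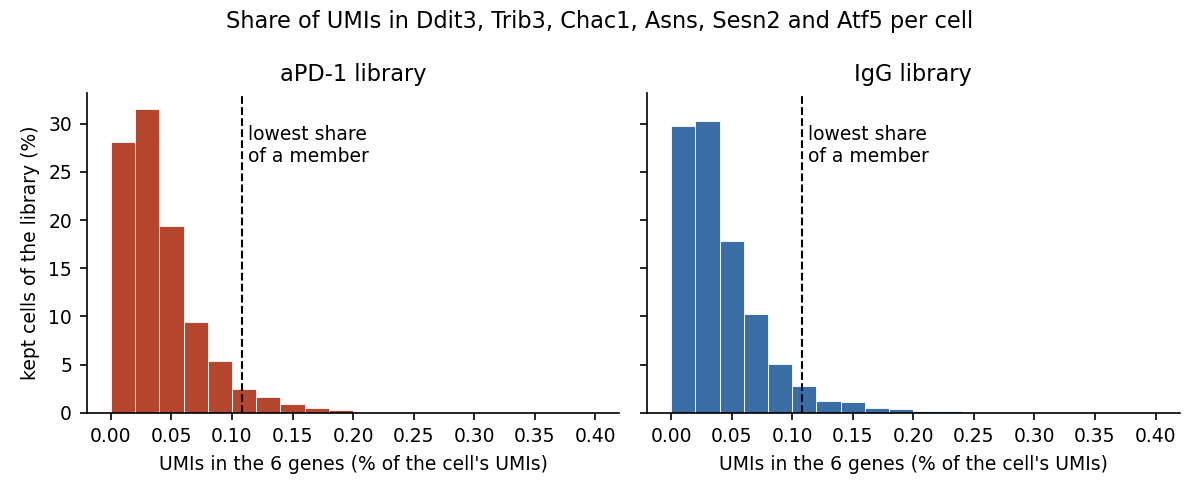
Histograms of the share of a cell's UMIs in the 6 genes (x axis, percent) over the kept cells of each library (y axis, percent of that library's cells), aPD-1 on the left and IgG on the right; the dashed line is the lowest share of a member, 0.10828%. Both libraries fall off smoothly through the line, with 4.77% of aPD-1 cells and 5.37% of IgG cells at or above it.

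Members did not carry the 6 genes in fixed proportions. Ddit3 was the leading gene of 72 of 160 members (45%) with aPD-1, against 27 of 118 (22.9%) with IgG. Atf5 led in 42 aPD-1 members (26.2%) and in 44 IgG members (37.3%), and Trib3 led in 22 and 26. Chac1 led in 1 aPD-1 member and Sesn2 in 1. The leading gene gave a median of 46.7% of a member's UMIs in the 6 genes with aPD-1 and 45.9% with IgG.

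In the summed counts Ddit3 stood at 456 CPM in members and 107 CPM in other kept cells with aPD-1, and at 355 and 76.0 CPM with IgG. Trib3 stood at 294 and 49.6 CPM with aPD-1, and at 396 and 52.0 CPM with IgG. Atf5 stood at 318 and 116 CPM with aPD-1, and at 417 and 121 CPM with IgG. Ddit3 was thus higher in aPD-1 members than in IgG members (ratio 1.28, 95% interval 1.17 to 1.40) and likewise in the other kept cells (1.41). Trib3 was lower in aPD-1 members than in IgG members (0.742, 0.673 to 0.817), with 0.953 in the other kept cells, and Atf5 gave 0.761 and 0.958. Ddit3, Trib3 and Atf5 are among the genes whose summed share chose the members, at a cut pooled over both libraries. Their levels in members are therefore not independent of each other. The member ratios between libraries are a description, and their intervals do not test a difference. Asns stood at 191 and 60.0 CPM with aPD-1, and at 239 and 73.1 CPM with IgG. Chac1 stood at 87.7 and 14.2 CPM with aPD-1, and at 88.0 and 15.9 CPM with IgG. Sesn2 stood at 54.9 and 19.1 CPM with aPD-1, a ratio of 2.87, and at 58.1 CPM in members with IgG, a ratio of 2.90.

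A measure apart from the choice was obtained by leaving each gene out of the share, choosing the top 5% by the other 5 genes and then reading the gene left out. All 6 genes were higher in the cells so chosen in both libraries. The ratio to the cells not chosen was 4.34 for Chac1 with aPD-1 (95% interval 3.66 to 5.11) and 4.67 with IgG (3.94 to 5.50). It was 3.74 with aPD-1 and 4.95 with IgG for Trib3, and 2.35 and 2.79 for Ddit3. Sesn2 gave 2.19 and 2.38, Asns 1.85 and 2.29, and Atf5 1.68 (1.55 to 1.83) and 2.27. Every one of these was smaller than the ratio in cells chosen by all 6 genes, which was 5.93 with aPD-1 and 7.62 with IgG for Trib3. With members chosen on 1 random portion of each cell's UMIs and measured on the rest, Trib3 gave 5.25 with aPD-1 and 6.15 with IgG. Of the 278 members, 192 were chosen again on the first portion and 213 on the second, and 138 cells were chosen on both.

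**Figure D2:**
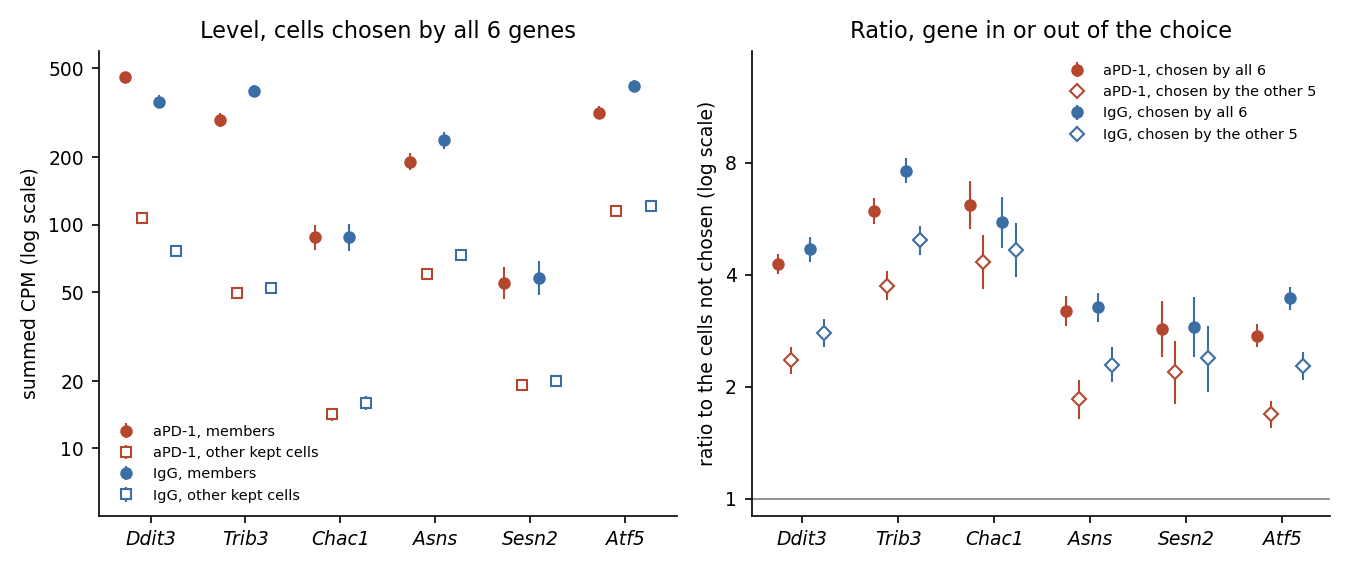
Left, summed CPM (log scale) of the 6 genes in members (filled circles) and other kept cells (open squares) of the aPD-1 (red) and IgG (blue) libraries, with exact Poisson 95% intervals. Right, ratio of chosen cells to cells not chosen (log scale, 95% counting intervals) when all 6 genes chose the cells (circles) and when the other 5 did (diamonds); the diamonds lie lower, between 1.68 and 4.95, and all above 1.

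Beyond the 6 genes, members were compared with the other kept cells of their own library over the 4833 further genes of at least 20 CPM. Genes past a CPM ratio of 1.5-fold in either direction, with a 95% counting interval that left out 1, are called higher or lower here. With aPD-1 451 genes (9.33%) were higher and 73 (1.51%) lower, and with IgG 579 (12%) were higher and 136 (2.81%) lower. In both libraries 332 genes (6.87%) were higher and 42 (0.869%) lower, and none was higher in 1 library and lower in the other. The shared genes were 73.6% of the aPD-1 higher calls and 57.3% of the IgG higher calls. The median log2 ratio over all 4833 genes was 0.11 with aPD-1 and 0.14 with IgG (pseudocount 1 CPM), a shift beside which the smaller list medians below have to be read. Scaled to remove it, both libraries had 198 genes higher and 102 lower. With members chosen after thinning, 185 were higher and 19 lower. Because the rule drew on the same contrast, these shares are a description of the members and are not support for the choice.

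**Figure D3:**
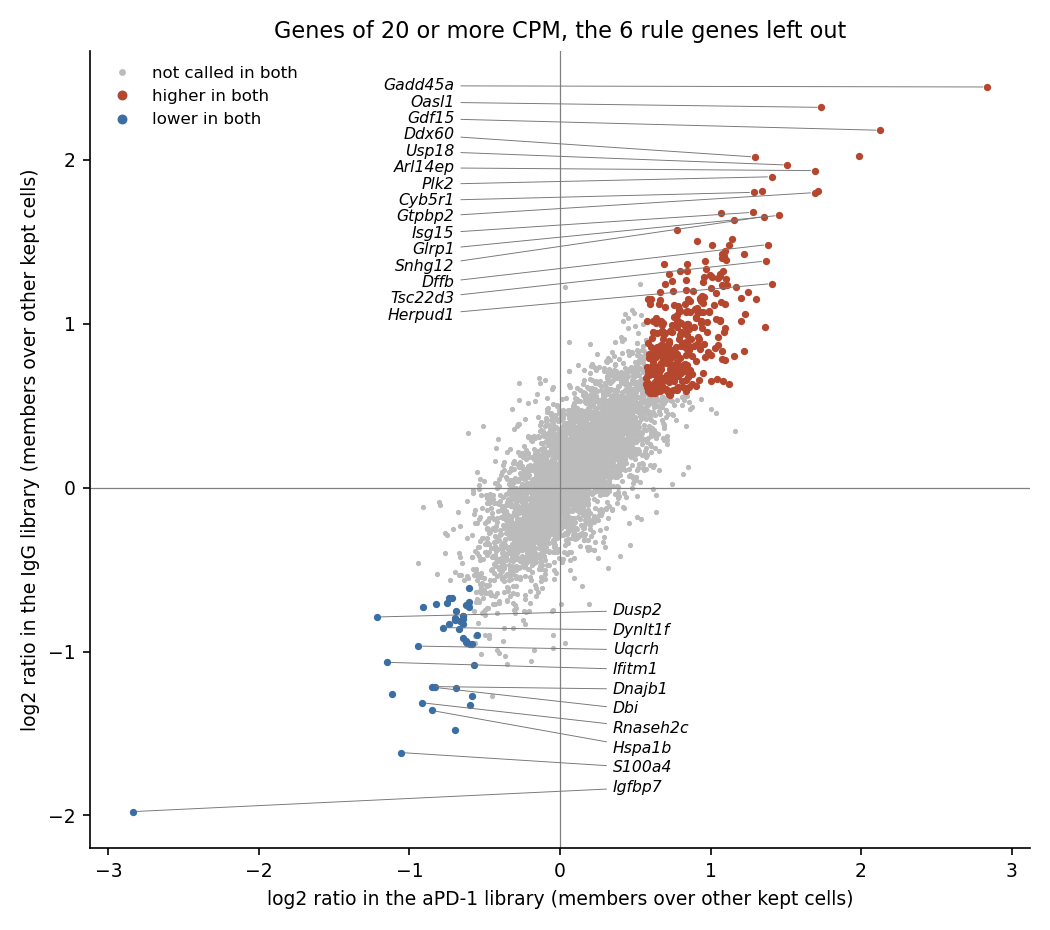
Log2 ratio of members over other kept cells (pseudocount 1 CPM) in the aPD-1 library (x axis) and in the IgG library (y axis) for the 4833 genes, with the 332 genes higher in both in red and the 42 lower in both in blue. Named genes are joined to their points; Gadd45a lies farthest up at 2.84 and 2.44, and Igfbp7 farthest down.

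Gadd45a, a stress gene linked to growth arrest and DNA repair, had the largest weaker ratio of the 2 libraries among the genes higher in both that the naming rule took, the 6 rule genes left out. It stood at 265 CPM in members and 36.3 CPM in other kept cells with aPD-1, and at 239 and 43.1 CPM with IgG, ratios of 7.32 (95% interval 6.71 to 7.97) and 5.54 (5.03 to 6.09). Gdf15, a secreted stress factor of the TGF-beta family, followed at 137 and 30.7 CPM with aPD-1, and at 144 and 31.1 CPM with IgG. Gtpbp2, which acts in the rescue of stalled ribosomes, stood at 148 and 45.2 CPM with aPD-1, and at 133 and 37.6 CPM with IgG. Levels of these 3 genes in members were close in the 2 libraries, with aPD-1 over IgG ratios of 1.11, 0.952 and 1.11, whose intervals include 1. Arl14ep, which also holds the promoter core, stood at 75.8 and 22.7 CPM with aPD-1, and at 113 and 28.8 CPM with IgG.

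Other genes among the 15 with the largest shared ratios covered several functions. Dffb, the nuclease that cuts DNA in apoptosis, was 2.68-fold higher with aPD-1 and 2.89-fold with IgG. Plk2, a stress-induced polo-like kinase, was 2.67-fold and 3.76-fold higher. Tsc22d3, the glucocorticoid-induced leucine zipper, was 2.60-fold and 2.62-fold higher. Snhg12, a non-coding host gene of small nucleolar RNAs, stood at 649 and 253 CPM with aPD-1, and at 665 and 211 CPM with IgG. Herpud1, which acts in the disposal of misfolded proteins of the endoplasmic reticulum, was 2.68-fold and 2.38-fold higher. Cyb5r1, a cytochrome b5 reductase, was 2.47-fold and 3.55-fold higher, and Glrp1 was 2.83-fold and 3.26-fold higher. The remaining 4 of the 15 were the interferon genes Oasl1, Usp18, Ddx60 and Isg15.

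Of 24 other ATF4 targets at or above 20 CPM, 17 were higher in members in both libraries and none lower, against 6.87% of all genes. The list was drawn up from known targets with earlier results of these data known. Its median log2 ratio was 0.80 with aPD-1 and 0.81 with IgG. Among transcription factors, Atf3 stood at 68.7 CPM in members and 31.8 CPM in other kept cells with aPD-1, and at 65.5 and 41.4 CPM with IgG. Cebpg, the C/EBP partner of ATF4, stood at 193 and 96.6 CPM with aPD-1, and at 179 and 84.1 CPM with IgG. Cebpb was 2.06-fold higher with aPD-1 and 2.28-fold with IgG. Among feedback and death genes, Ppp1r15a, which directs the phosphatase that restores translation, was 1.92-fold and 2.03-fold higher. Bbc3, the death gene also called Puma, was 1.96-fold and 2.27-fold higher. Adm2, a secreted peptide of the adrenomedullin family, was 2.13-fold and 3.25-fold higher. Ddit4, an inhibitor of mTORC1, stood at 361 and 161 CPM with aPD-1, and at 490 and 281 CPM with IgG. Map1lc3b of autophagy was close to level, at 260 and 238 CPM with aPD-1, and at 258 and 272 CPM with IgG. Fgf21, a stress hormone with the promoter core, lay below the CPM floor, at 7.84 and 0.561 CPM with aPD-1, and at 17.6 and 1.57 CPM with IgG.

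The difference in other ATF4 targets was also seen cell by cell. The rule had not used these genes, but they were listed with earlier results of these data known, so this describes the members and is not support for the choice. The 33 listed targets held a median of 0.551% of a member's UMIs with aPD-1 (lowest 0.212%, highest 1.53%), against 0.335% in other kept cells (0.0718% to 1.26%). With IgG the median was 0.595% in members (0.307% to 1.28%), against 0.338% in other kept cells (0.0415% to 1.07%). Of the members, 144 of 160 (90%) with aPD-1 and 115 of 118 (97.5%) with IgG lay above the median of the other kept cells of their library, and the ranges of the 2 classes overlapped widely.

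Genes that charge tRNAs were higher as a group. The list held 20 cytoplasmic tRNA synthetase genes, all of them at the CPM floor. Of these, 15 were higher in members in both libraries, against 6.87% of all genes. The median log2 ratios were 0.71 with aPD-1 and 0.93 with IgG. Tars, for threonine, stood at 115 CPM in members and 49.3 CPM in other kept cells with aPD-1, and at 133 and 59.2 CPM with IgG. Gars, for glycine, stood at 204 and 90.1 CPM with aPD-1, and at 255 and 108 CPM with IgG. Wars, for tryptophan, which interferon also induces, was 2.20-fold higher with aPD-1 and 2.69-fold with IgG. Eprs, for glutamate and proline, was 1.81-fold and 2.22-fold higher. Kars, for lysine, did not reach the cut in either library, with ratios of 0.880 and 1.10, and neither did Qars, for glutamine, at 1.17 and 1.18.

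Amino acid transporters and serine synthesis showed the same direction. Of 6 transporter genes at the floor, 4 were higher in both libraries, against 6.87% of all genes. The list medians were 0.74 with aPD-1 and 1.11 with IgG. Slc3a2, the shared heavy chain of several transporters, stood at 488 CPM in members and 251 CPM in other kept cells with aPD-1, and at 603 and 247 CPM with IgG. Slc7a11, the cystine carrier whose promoter window holds the core at both places shown above, stood at 106 and 65.2 CPM with aPD-1, and at 117 and 48.7 CPM with IgG. Slc1a5, a glutamine carrier, was 1.81-fold and 2.60-fold higher. Slc38a2, another amino acid carrier, did not reach the cut, at 1.28-fold and 1.35-fold. Of 6 genes of serine and one-carbon metabolism at the floor, 4 were higher in both libraries, against the same 6.87%. These 4 were Phgdh, Psph, Shmt2 and Mthfd2. Phgdh, the first step of serine synthesis from glycolysis, stood at 329 and 193 CPM with aPD-1, and at 379 and 226 CPM with IgG. Psat1, the step after it, gave ratios of 1.15 and 1.27.

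Atf4 mRNA itself was higher in members, at 801 CPM against 432 CPM in other kept cells with aPD-1, and at 712 against 391 CPM with IgG. Of the eIF2 kinases, Eif2ak2 (PKR, which senses double-stranded RNA and is itself an interferon gene) was the 1 that reached the CPM floor. It stood at 71.3 and 40.6 CPM with aPD-1, and at 97.7 and 48.3 CPM with IgG. Below the floor, Eif2ak4 gave ratios of 1.46 with aPD-1 and 1.25 with IgG, Eif2ak3 1.46 and 0.931, and Eif2ak1 0.794 and 0.998. The IRE1 and ATF6 branches of the unfolded protein response, which raise chaperones of the endoplasmic reticulum, did not follow as a list. None of their 16 genes was higher in both libraries, against 6.87% of all genes, and a list of this size cannot tell none from that background. The list median was -0.18 with aPD-1 and -0.17 with IgG. With aPD-1 1 gene was higher and none lower, and with IgG none was higher and 2 were lower. The gene higher with aPD-1 was Xbp1, at a ratio of 1.64 (interval 1.44 to 1.86). With IgG Xbp1 gave 1.39 (1.21 to 1.58) and did not reach the cut. Hspa5, the chaperone BiP, stood at 386 and 267 CPM with aPD-1, and at 532 and 427 CPM with IgG. Its ratios of 1.45 and 1.25 had intervals above 1 but did not reach the cut. Calr, calreticulin, stood at 480 and 579 CPM with aPD-1, and at 563 and 790 CPM with IgG. Members were in the top 5% of cells for this list in 2 of 160 cases (1.25%) with aPD-1 and in 8 of 118 (6.78%) with IgG, against 2.44% and 9.13% of the other kept cells.

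Against 6.87% of all genes, 3 of 10 mitochondrial stress genes were higher in both libraries. These were Lonp1, a matrix protease, at 2.15-fold with aPD-1 and 2.70-fold with IgG, Hspa9, a matrix chaperone, at 1.89-fold and 2.12-fold, and Dnaja3, its co-chaperone, at 2.06-fold and 2.39-fold. The chaperonin Hspd1 did not reach the cut, with ratios of 1.15 and 1.01, and its partner Hspe1 stood at 1525 and 1695 CPM with aPD-1, and at 1248 and 1525 CPM with IgG. Hypoxia genes had list medians of 0.02 and 0.04, below the median of all genes. Of 19 hypoxia genes, 1 was higher in both libraries, near the 6.87% of all genes. This was Ddit4, which is also on the list of ATF4 targets.

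**Figure D4:**
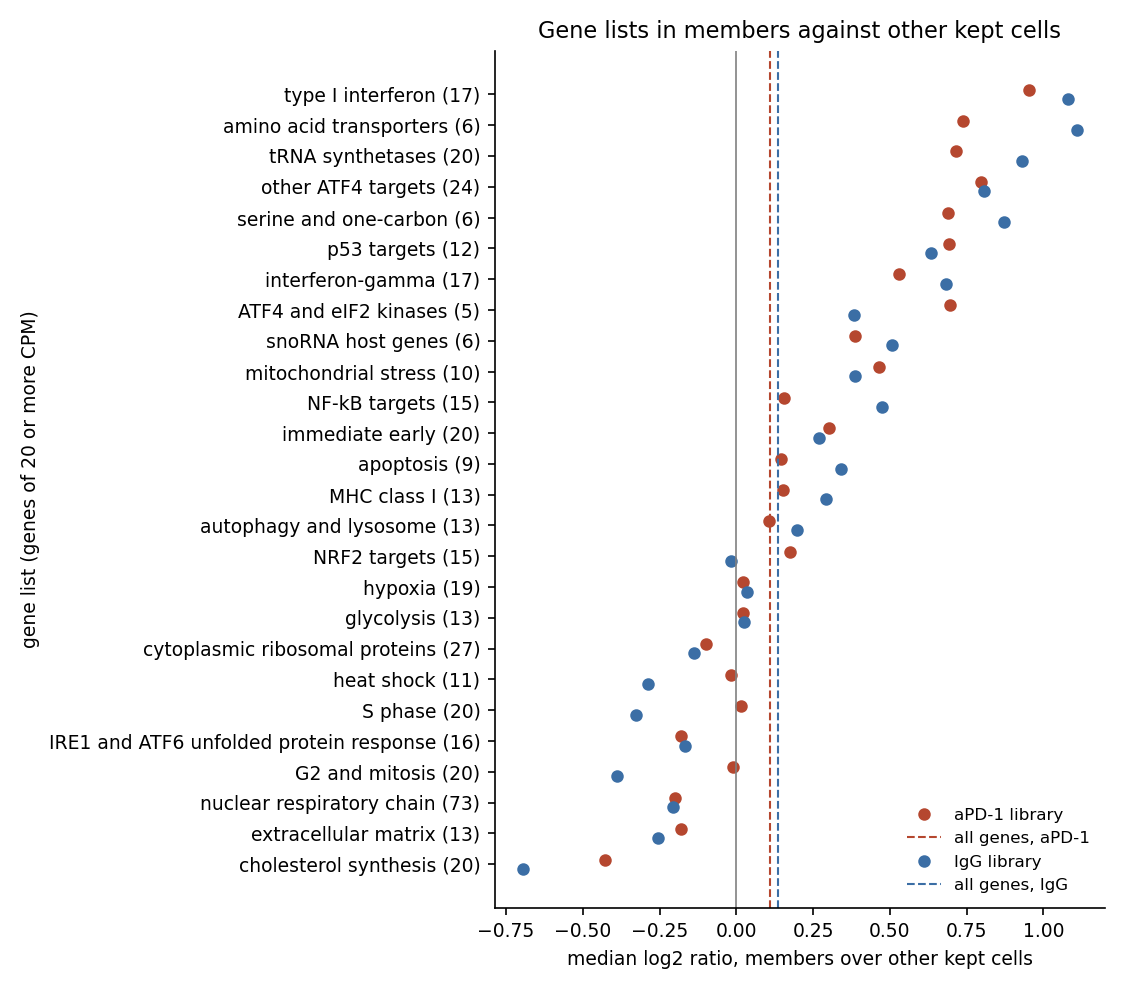
Median log2 ratio of members over other kept cells (x axis, pseudocount 1 CPM) for each gene list of at least 5 genes at the CPM floor (number in brackets), with aPD-1 in red and IgG in blue; dashed lines mark the median of all genes, 0.11 and 0.14. Lists of interferon, ATF4, tRNA charging and amino acid genes lie to the right in both libraries, and cholesterol synthesis lies farthest left at -0.43 and -0.70.

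The 12 p53 targets had list medians of 0.69 with aPD-1 and 0.63 with IgG. With aPD-1 7 were higher and with IgG 6, and none was lower. Against 6.87% of all genes, 5 of the 12 were higher in both libraries. Of these 5, Gadd45a, Gdf15 and Bbc3 are also on the list of ATF4 targets. The other 2 were Plk2 and Fas, a death receptor, at 31.7 CPM in members and 14.7 CPM in other kept cells with aPD-1, and at 60.7 and 24.2 CPM with IgG. Phlda3 and Bax, p53 targets outside the ATF4 list, gave ratios of 0.905 and 1.09 with aPD-1, and of 0.962 and 1.11 with IgG. Cdkn1a, the cell cycle inhibitor p21, was 1.63-fold higher with aPD-1 and stood at 78.7 CPM in members and 54.3 CPM in other kept cells with IgG, below the cut. Members were in the top 5% of cells for the p53 list in 44 of 160 cases (27.5%) with aPD-1 and in 41 of 118 (34.7%) with IgG, against 3.72% and 3.56% of other kept cells, with the 3 shared genes counted in.

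Type I interferon genes were higher in members as well. Of 17 genes at the floor, 14 were higher in both libraries, against 6.87% of all genes. The list medians were 0.95 with aPD-1 and 1.08 with IgG. Isg15, a ubiquitin-like protein, stood at 1086 CPM in members and 446 CPM in other kept cells with aPD-1, and at 1569 and 490 CPM with IgG. Usp18, which removes Isg15 from its targets, stood at 95.5 and 32.9 CPM with aPD-1, and at 147 and 36.8 CPM with IgG. Oasl1, of the oligoadenylate synthetase family, stood at 70.5 and 20.5 CPM with aPD-1, and at 77.0 and 14.6 CPM with IgG. Its counts can share reads with the related Oasl2 in ways these tables do not show. Bst2, a tether of budding viruses, did not reach the cut, with ratios of 1.24 and 1.36. Of 17 interferon-gamma genes, 4 were higher with aPD-1 and 12 with IgG, against 9.33% and 12% of all genes. In both libraries 4 were higher, against 6.87%, and the list medians were 0.53 and 0.68. Irf1, an interferon-responsive transcription factor, was 2.49-fold and 2.22-fold higher.

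A minority of members were also among the cells highest in interferon genes. Members were in the top 5% of kept cells for type I interferon genes in 23 of 160 cases (14.4%, interval 9.34 to 20.8) with aPD-1, against 4.13% of other kept cells. With IgG this held for 24 of 118 members (20.3%, 13.5 to 28.7), against 4.76% of other kept cells. Because the list holds Isg15, the gap in Isg15 between cells inside and outside that top 5% is fixed by the choice. It was 3993 against 587 CPM in aPD-1 members and 4589 against 845 CPM in IgG members, and the other kept cells showed a like split, 2790 against 364 CPM with aPD-1 and 2783 against 408 CPM with IgG. Among genes outside the interferon list, Gadd45a stood at 249 CPM in the interferon-high members and 268 CPM in the other members with aPD-1, and at 289 and 227 CPM with IgG. Trib3 was at 458 and 266 CPM with aPD-1, and at 489 and 374 CPM with IgG. Cebpg was at 282 and 177 CPM with aPD-1, and at 253 and 161 CPM with IgG, and Gdf15 at 201 and 126 CPM, and at 182 and 135 CPM. Of these 4 stress genes, Trib3, Cebpg and Gdf15 thus had larger CPM in the interferon-high members in both libraries, and Gadd45a in IgG alone. The 1.5-fold cut was not applied to these levels, and no intervals are given for them. Gdf15 rested on 79 UMIs in the interferon-high members with aPD-1 and on 80 with IgG. Trib3 is also among the genes that chose the members. The pattern was not particular to members, since all 4 had larger CPM in the interferon-high part of the other kept cells in both libraries. There Trib3 stood at 86.3 and 48.3 CPM with aPD-1, and at 79.2 and 51.1 CPM with IgG. Gdf15 stood at 54.9 and 29.8 CPM, and at 44.5 and 30.6 CPM. Without the top 5% of cells in interferon genes, the interferon list median was 0.46 with aPD-1 and 0.71 with IgG, and 7 and 12 of the 17 genes were higher. The median of the other ATF4 targets was then 0.73 and 0.84.

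Fewer genes were lower in members. Igfbp7, a secreted binder of insulin-like growth factors, had 0 UMIs in aPD-1 members and 6.14 CPM in other kept cells, at least 5.49-fold lower when 3 UMIs over the class are taken as the floor. With IgG it stood at 13.2 CPM in members and 54.9 CPM in other kept cells. S100a4, a calcium-binding protein of mesenchymal cells, stood at 215 and 449 CPM with aPD-1, and at 245 and 753 CPM with IgG. Vim, vimentin, on the same mesenchymal list, stood at 1708 and 1733 CPM with aPD-1, and at 1978 and 1952 CPM with IgG. The heat shock genes Dnajb1 and Hspa1b were lower, Dnajb1 at 171 and 310 CPM with aPD-1, and at 180 and 419 CPM with IgG. Hspa1b can share reads with its near-identical copy Hspa1a, and stood at 16.8 and 31.1 CPM with aPD-1, and at 29.5 and 77.2 CPM with IgG. Hsp90ab1, on the same list, gave ratios of 0.988 and 0.938. Ifitm1, Rnaseh2c, Dbi, Dusp2 and Dynlt1f completed the 10 named lower genes, with ratios from 0.396 (Rnaseh2c with IgG) to 0.575 (Dynlt1f with aPD-1) over both libraries. Ifitm1 and Dynlt1f belong to families of similar sequence, and their counts are uncertain.

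Cholesterol synthesis was the list with the lowest medians, -0.43 with aPD-1 and -0.70 with IgG. Of its 20 genes at the floor, 6 were lower with aPD-1 and 14 with IgG, and none was higher. In both libraries 5 were lower, Idi1 and Insig1 among them, against 0.869% of all genes. Idi1, an isomerase of the isoprenoid steps, stood at 30.2 CPM in members and 49.7 CPM in other kept cells with aPD-1, and at 45.8 and 80.2 CPM with IgG. Insig1, which restrains the pathway's transcription factor, stood at 32.5 and 50.7 CPM with aPD-1, and at 39.6 and 77.1 CPM with IgG. Members were in the top 5% of cells for this list in 1.25% of cases with aPD-1 and 3.39% with IgG, against 2.47% and 9.28% of the other kept cells. Nuclear genes of the respiratory chain, a list added after their values were seen, had medians of -0.20 and -0.21. Against 0.869% of all genes, 4 of these 73 were lower in both libraries. Those were Ndufa4, Uqcrh, Cox7a2 and Atp5k, and Uqcrh of complex III stood at 245 and 472 CPM with aPD-1, and at 259 and 507 CPM with IgG. Genes lower in both libraries had a median longest transcript of 2127 bases, against 3004 bases for higher genes and 2979 bases for all genes tested; its part in the result was not tested.

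The members of both libraries were then set beside each other. Against IgG members, 66 genes (1.37%) were higher and 308 (6.37%) lower in aPD-1 members, with a median log2 ratio over all genes of -0.12. The other kept cells of the 2 libraries differed in the same comparison by 23 genes higher (0.476%) and 130 lower (2.69%), with a median of -0.09. Scaled to a median of 0, aPD-1 members had 134 genes higher and 125 lower, so the direction of the balance rests on the scaling. Member sums rest on 2679567 UMIs with aPD-1 and 2273153 with IgG, and those of the other kept cells on 58783211 and 47149487. The part of this gap and of the ribosomal share in the counts was not tested, and the larger counts among members were not shown to be a larger difference between libraries.

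Genes of cell division were the leading ones higher in aPD-1 members. Hist1h1b, a linker histone, stood at 36.6 CPM in aPD-1 members and 14.1 CPM in IgG members, a ratio of 2.60; its counts can share reads with other histone genes. The other kept cells gave 37.7 CPM with aPD-1 and 18.1 CPM with IgG. Mki67, the proliferation marker Ki-67, stood at 35.8 CPM in aPD-1 members and 18.5 CPM in IgG members, while other kept cells stood at 31.3 CPM with aPD-1 and 30.9 CPM with IgG. Gmnn, a licensing inhibitor of replication, stood at 90.7 and 46.6 CPM in aPD-1 and IgG members, a ratio of 1.94 (95% interval 1.54 to 2.47), and at 93.6 and 88.0 CPM in the other kept cells. For Mki67 and Gmnn, levels in the other kept cells were thus close in the 2 libraries, and IgG members stood apart on the low side. Clspn, H2afx and Cenpf followed, with ratios of 2.20, 2.16 and 1.94. The S phase list had a median of 0.01 in aPD-1 members against other kept cells and -0.33 in IgG members, and the G2 and mitosis list -0.01 and -0.39. Over the alternative settings the S phase median ranged from -0.11 to 0.26 with aPD-1 and from -0.62 to -0.16 with IgG.

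Among genes lower in aPD-1 members, Igfbp7 had 0 UMIs, against 13.2 CPM in IgG members, at least 11.8-fold lower with the same floor of 3 UMIs over the aPD-1 members. Hes1, a target of Notch signalling, had an aPD-1 over IgG ratio of 0.447 in members and 0.280 in the other kept cells. Gsn, gelsolin, stood at 18.3 and 45.3 CPM in aPD-1 and IgG members, and at 28.3 and 69.9 CPM in the other kept cells. Mfge8, Cpq and Snhg9 had ratios of 0.433, 0.398 and 0.436 in members. For these genes the difference between libraries was present in the other kept cells in the same direction. For the ATF4 targets the libraries differed little, with a list median of -0.10 in members and -0.02 in the other kept cells, and for the tRNA synthetases it was -0.32 and -0.17.

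The ATF4 targets climbed over the whole range of the share, whereas some other values changed mostly in the top bin. All kept cells were ranked by the share and divided into the lowest 50%, then 50 to 80%, 80 to 90%, 90 to 95% and the top 5%. Gadd45a stood at 20.2, 42.4, 68.6, 94.8 and 265 CPM over these bins with aPD-1, and at 26.8, 46.8, 78.9, 126 and 239 CPM with IgG. Gdf15 ran through 17.5, 37.1, 47.9, 87.4 and 137 CPM with aPD-1, and through 17.6, 37.3, 59.2, 82.5 and 144 CPM with IgG. Gadd45a thus had its largest step into the top 5%, and was already several-fold above the lowest bin before it. Relative to the lowest 50%, the other ATF4 targets had medians of 0.30, 0.56, 0.64 and 1.03 with aPD-1, and of 0.27, 0.53, 0.71 and 0.98 with IgG. Interferon genes had medians of 0.06, 0.34, 0.56 and 1.08 with aPD-1, and of -0.01, 0.12, 0.18 and 1.12 with IgG. Cholesterol synthesis had -0.06, -0.15, -0.33 and -0.47 with aPD-1, and -0.02, -0.06, -0.22 and -0.73 with IgG. In IgG, most of the interferon difference lay in the top bin, whereas the ATF4 targets climbed through all bins in both libraries.

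**Figure D5:**
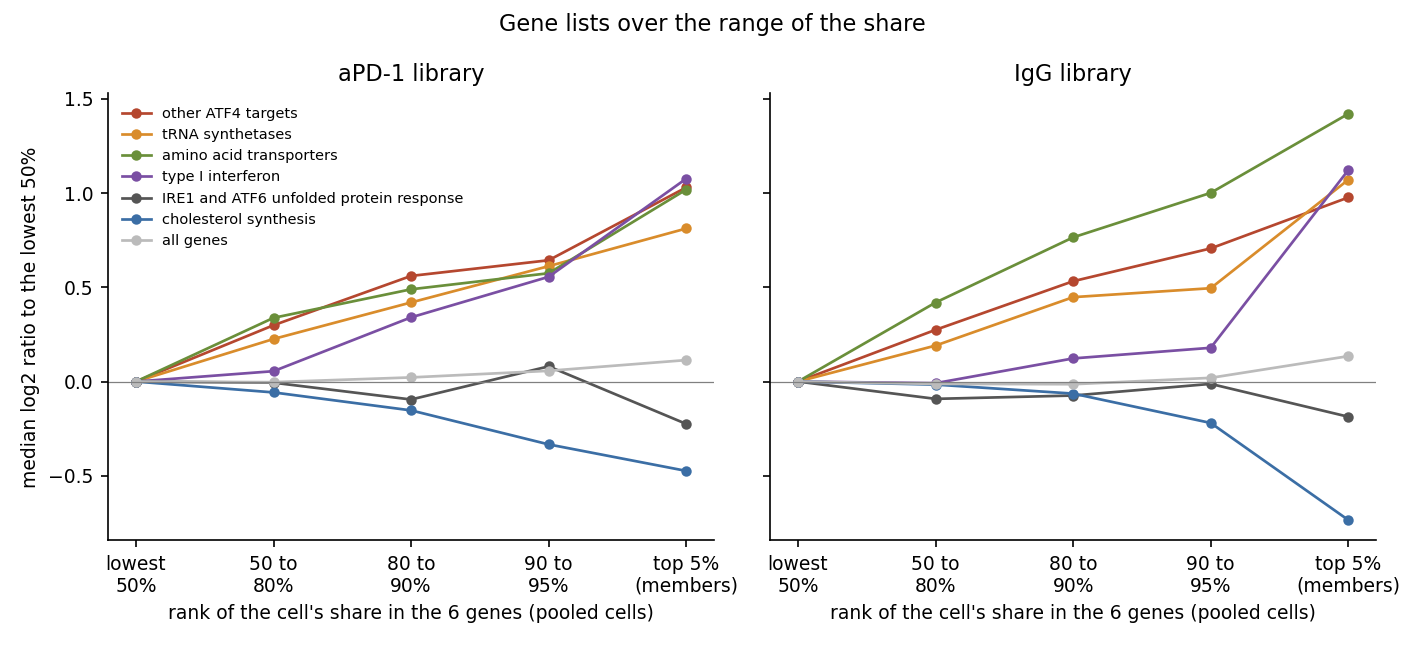
Median log2 ratio to the lowest 50% of cells (y axis) of 6 gene lists and of all genes, over bins of the cell's rank by its share in the 6 genes (x axis), aPD-1 on the left and IgG on the right. The other ATF4 targets climb through every bin to 1.03 and 0.98, while the IRE1 and ATF6 list ends at -0.22 and -0.19 and cholesterol synthesis at -0.47 and -0.73.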

How the data were processed

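Single-cell RNA from 2 libraries, 1 with aPD-1 and 1 with IgG, was analysed. The deposited values are raw UMI counts per gene and barcode; per the file headers the matrices come from Cell Ranger version 3.0.2. Seurat 2.1.0 and the build mm10 appear in the submitters' processing notes, while an annotation release was not given in the sources used here. All barcodes stood in the deposited aPD-1 matrix, whereas the IgG matrix listed 4351, so 5000 UMIs were required of both.

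Counts were summed over members and over other kept cells per library and divided by the sum of UMIs. Ratios carry exact conditional binomial 95% intervals, levels exact Poisson intervals and shares Clopper-Pearson intervals, all covering counting error only. Log2 ratios carry a pseudocount of 1 CPM, which understates low genes. Genes of at least 20 CPM over all kept cells were compared, and 1.5-fold with an interval beyond 1 counted as higher or lower. No p-value was computed, since each group has 1 library.

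The members and the gene lists were chosen with earlier results of these data known, and 2 lists (host genes of small nucleolar RNAs, nuclear respiratory chain genes) after values were seen. Host genes of small nucleolar RNAs had medians of 0.38 with aPD-1 and 0.51 with IgG. Named genes are the 6 rule genes; up to 15 higher and 10 lower in both libraries, by the weaker ratio; up to 6 in each direction between members; up to 4 extremes of each list by the mean log2 ratio; and markers. Ribosomal, mitochondrial and haemoglobin genes and unnamed models were left out. Other list members are named as chosen after their values were seen. Of 648 listed symbols, 15 did not match 1 row and were not used here. Steps ran in Python 3.11.15 with numpy 2.4.6, scipy 1.17.1 and pandas 2.3.3, and were tested on simulated data. There were 16 alternative settings, 2 of them chosen after seeing the data. Results for some items are not reported here.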

Additional observations from a re-analysis of the deposited data

How the results depend on the processing

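All intervals cover counting error in 1 library per treatment, and the spread between tumours or cultures could not be measured. No paired analysis was possible because each group has 1 library and the labels give no replicate numbers. With members chosen after thinning to 5000 UMIs, 185 genes were higher and 19 lower in members in both libraries, and 177 were lower in aPD-1 than in IgG members. With the top 2% of cells, members were 1.70% of aPD-1 and 2.46% of IgG cells, 551 genes were higher and 103 lower in both libraries, 172 were higher in aPD-1 members, and the other ATF4 targets had a median of 1.16 with aPD-1. With the top 10%, the shares were 9.80% and 10.3%, the counts were 170 higher and 15 lower, and 153 were lower in aPD-1 members. With the median of all genes set to 0, the counts were 198 higher and 102 lower, and between members 134 higher and 125 lower with aPD-1. Without a CPM floor they were 887 and 73, and 190 and 829, and with a floor of 5 CPM 755 and 73, and 157 and 678. At 2-fold they were 55 and 4, and 3 and 14. The list of mTORC1 inhibitors, which held 1 gene at the floor, had a median of 1.16 with aPD-1 and turned to -0.048 with the floor at 5 CPM, where more of its genes enter. Over all alternatives the median of the other ATF4 targets ranged from 0.67 to 1.16 with aPD-1 and from 0.67 to 0.96 with IgG. Without the deepest 5% of cells of each library, 301 genes were higher and 49 lower. Of the 332 higher and 42 lower genes of the main result, this setting kept 285 and 39. A floor of 10000 UMIs per cell kept 287 and 32, and thinning before the choice kept 169 and 10. Apart from the settings printed above, the causes of these shifts were not tested.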

Other observations

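Further gene lists showed smaller or uneven median differences between members and other kept cells. Of 15 NF-kB targets, 4 were higher in both libraries, against 6.87% of all genes. Among them Nfkb2, a subunit of the factor, stood at 144 CPM in members and 75.3 CPM in other kept cells with aPD-1, and at 228 and 108 CPM with IgG. Relb, its partner, stood at 86.2 and 45.5 CPM with aPD-1, and at 128 and 59.5 CPM with IgG. Of 20 immediate early genes, 2 were higher in both libraries, near the 6.87% of all genes. These were Atf3, also on the list of ATF4 targets, and the growth factor-responsive Myc. Myc stood at 164 and 77.8 CPM with aPD-1, and at 189 and 92.5 CPM with IgG. The list medians were 0.16 with aPD-1 and 0.47 with IgG for NF-kB targets, and 0.30 and 0.27 for immediate early genes. Members were in the top 5% of cells for immediate early genes in 14.4% of cases with aPD-1 and 16.1% with IgG. The other kept cells were in it in 2.72% and 7.16%. For NF-kB targets these shares were 7.5% and 16.1% of members, against 4.01% and 5.72%. For interferon-gamma genes they were 10.6% and 15.3%, against 4.44% and 4.86%. For NRF2 targets they were 5.62% and 0.847%, against 6.98% and 2.16%. Of 15 NRF2 targets, which answer oxidative stress, Slc7a11 was the 1 that was higher in both libraries. None of 13 glycolysis genes, 27 ribosomal protein genes and 13 extracellular matrix genes was called in both libraries. Against 6.87% of all genes higher in both libraries, the lists with 1 such gene lie near the background. Single genes were higher in both libraries among 13 genes of MHC class I (H2-Q4, whose reads can be shared within the H2 family) and 13 of autophagy and lysosome (Sqstm1). Among 9 apoptosis genes these were Bbc3 and Fas.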
